A study of Homo sapiens with 3 samples.

Results

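The replication-dependent histone cluster genes were taken as every gene name that starts with HIST1H, HIST2H, HIST3H or HIST4H in the count tables, whatever its counts. There were 73 such names among 26485. By class they comprised 6 linker histone H1 genes, 18 H2A, 20 H2B, 14 H3 and 15 H4 genes. The names include 3 annotated pseudogenes, HIST1H2APS1 in H2A and HIST2H2BA and HIST2H2BC in H2B, none with a count. By cluster they comprised 56 HIST1 genes on chromosome 6, 13 HIST2 and 3 HIST3 genes on chromosome 1 and 1 HIST4 gene on chromosome 12. The samples were 3 replicate libraries of HEK293, an established human embryonic kidney line transformed with adenovirus DNA, grown in DMEM with 10% fetal calf serum. They formed a single untreated group (n = 3), so the comparisons are between classes, clusters and genes within a library and between replicates. The protocols describe ribosomal RNA depletion and a strand-preserving kit, whereas the titles call the libraries mRNA sequencing, and nothing in the labels says whether the replicates were separate cultures.

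Core histones H2A, H2B, H3 and H4 form the octamer on which DNA is wound, and H1 binds the linker between octamers. Their replication-dependent genes are transcribed mainly in S phase from clusters of short genes, most of them without introns. The mRNAs end in a conserved stem-loop in place of a poly(A) tail, and the stem-loop binding protein SLBP holds that structure. Many copies of a class encode the same or nearly the same protein, so their coding sequences are alike.

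The stem-loop is shown first because it is the sequence that sets this family apart from other mRNAs. A match to the 16-base histone stem-loop was searched on the sense strand of the GENCODE 29 transcripts (GRCh38). It was found for 33 of the 73 members and for 10 of 58648 other genes, or 0.0171%. None of the 6 H1 members had a match. HIST1H1A, HIST1H1B, HIST1H1C and HIST1H1D are annotated with little beyond their coding sequence. The annotated exon of HIST1H1E, 754 bases, exceeds its coding sequence of 657. How many of the extra bases follow the stop codon was not measured, so the search does not show whether its mRNA lacks the stem-loop. Of the 40 members with no match, 32 were annotated with little beyond their coding sequence, so the search window did not reach the mRNA end. The following lines give, among members with a match, those with the highest summed counts in H2A, H2B (a tie), H3 and H4, with the stem-loop in capitals and 5 flanking bases on each side. They lie at chr6:27133510-27133535 (plus strand), chr6:26123467-26123492 (minus), chr6:26158582-26158607 (plus), chr6:27810511-27810536 (plus) and chr6:26204996-26205021 (plus), in the order listed. In the same order, the stem-loops ended 1761, 116, 39, 769 and 1022 bases before the nearest annotated transcript end.
HIST1H2AG: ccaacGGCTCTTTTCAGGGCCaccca
HIST1H2BC: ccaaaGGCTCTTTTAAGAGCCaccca
HIST1H2BD: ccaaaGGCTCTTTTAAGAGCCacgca
HIST1H3H: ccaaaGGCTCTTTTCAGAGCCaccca
HIST1H4E: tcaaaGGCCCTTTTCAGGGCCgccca
The 5′ arm read GGCTCT in all 7 H2A, all 12 H2B and all 6 H3 members with a match. It read GGCCCT in all 8 H4 members with one, as in HIST1H4E above.

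Promoters also differed by class in the letters they held. RefSeq promoter windows (GRCh38.p14, 250 bases before to 50 bases after the start) were matched for 61 members. The octamer ATTTGCAT, bound by the factor POU2F1, was present on either strand in 13 of 16 H2B and 11 of 16 H2A windows and in none of the 6 H1, 10 H3 and 13 H4 windows, against 1.71% of 27240 other promoters. Head-to-head H2A and H2B genes share much of this window, so the counts for both classes rest partly on the same bases. The H1 element AAACACA was present in 6 of 6 H1 windows, in 1 H2A and 2 H3 windows and in 5.74% of other promoters. CCAAT was present in every H1, H2A, H2B and H3 window, in 3 of 13 H4 windows and in 35.6% of other promoters. TATAAA was present in 40 of the 61 windows and in 11.8% of other promoters.

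Windows of 4 members are printed to show these class differences, each 5′ to 3′ with every match to the 4 motifs in capitals on either strand; overlapping matches run together. HIST1H1E (chr6:26156079-26156378, plus strand) received the most counts and HIST1H1C (chr6:26056421-26056720, minus) was the next H1 gene. HIST1H2BJ (chr6:27132746-27133045, minus) faces HIST1H2AG and holds the octamer. HIST1H4E (chr6:26204360-26204659, plus) led H4 and held none of the 4 motifs.
HIST1H1E: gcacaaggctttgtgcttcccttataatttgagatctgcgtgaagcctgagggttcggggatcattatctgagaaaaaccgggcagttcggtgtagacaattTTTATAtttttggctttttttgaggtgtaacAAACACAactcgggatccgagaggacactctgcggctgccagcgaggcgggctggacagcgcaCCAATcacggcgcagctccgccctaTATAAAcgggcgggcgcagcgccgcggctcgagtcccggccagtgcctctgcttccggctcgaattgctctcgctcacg
HIST1H1C: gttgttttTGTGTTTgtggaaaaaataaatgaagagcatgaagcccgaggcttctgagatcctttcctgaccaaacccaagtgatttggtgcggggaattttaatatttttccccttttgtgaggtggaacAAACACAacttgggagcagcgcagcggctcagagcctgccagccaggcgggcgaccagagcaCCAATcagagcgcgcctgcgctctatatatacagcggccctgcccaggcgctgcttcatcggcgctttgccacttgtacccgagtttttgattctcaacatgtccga
HIST1H2BJ: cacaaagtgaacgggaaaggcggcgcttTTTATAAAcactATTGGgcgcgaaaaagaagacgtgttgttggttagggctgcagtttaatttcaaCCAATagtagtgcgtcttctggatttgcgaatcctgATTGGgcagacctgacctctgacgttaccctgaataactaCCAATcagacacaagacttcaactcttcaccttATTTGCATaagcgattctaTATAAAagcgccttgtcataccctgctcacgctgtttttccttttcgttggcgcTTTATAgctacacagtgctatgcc
HIST1H4E: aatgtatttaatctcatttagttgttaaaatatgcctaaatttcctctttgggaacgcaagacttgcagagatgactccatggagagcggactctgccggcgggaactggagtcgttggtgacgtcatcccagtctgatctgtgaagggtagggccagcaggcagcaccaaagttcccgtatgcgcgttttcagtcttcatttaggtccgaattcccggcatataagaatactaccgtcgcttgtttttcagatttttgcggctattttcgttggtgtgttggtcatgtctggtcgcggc

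The libraries were shallow for gene names. Gene-assigned totals were 412066, 483114 and 289241 counts in replicates 1, 2 and 3, and between 90.6% and 91.5% of all records fell in no annotated feature. Values are given as counts and as CPM, the counts per 1000000 of a library size scaled with edgeR's TMM method. A count of 0 allows up to 3 counts, or 6.86, 6.92 and 9.89 CPM in replicates 1, 2 and 3; these floors and the intervals below cover counting error alone. No source used here gives the strand option of the counting, so the counts under any histone name, HIST1H1E included, may come from either strand, and levels here are not levels of sense RNA alone. TSIX, an antisense RNA gene, held 17.9%, 28.5% and 17.1% of gene-assigned counts in replicates 1, 2 and 3. The labelled line could not be checked from markers at this depth: among embryonic kidney markers, EYA1 had 2, 1 and 2 counts and PAX2, LHX1 and SIX2 had none. Among blood markers, PTPRC, CD3E and HBB had none.

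Histone genes together received few counts, and replicate 2 was lowest. They held 530, 265 and 358 counts in replicates 1, 2 and 3. These were 0.129% (Wilson 95% interval 0.118% to 0.140%), 0.0549% (0.0486% to 0.0619%) and 0.124% (0.112% to 0.137%) of gene-assigned counts. The mean share was 0.102% ± 0.0413 (SD, n = 3), and the interval of replicate 2 did not meet those of the other two. Leaving out HIST1H1E, the family stood at 757, 367 and 636 CPM, so replicate 2 was lowest with and without that gene.

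A count in at least 1 library was found for 46 of the 73 members (63.0%), against 54.7% of all names in the tables. By class it was found for 83.3% of H1, 66.7% of H2A, 65.0% of H2B, 57.1% of H3 and 53.3% of H4 members. A count in every library was found for 24 members (32.9%), against 29.2% of all names. Among those with a count, the median summed count over the 3 libraries was 12.5 for members and 9 for all names. Of the 46, 6 (13.0%) stood at 0 in replicate 1, 13 (28.3%) in replicate 2 and 12 (26.1%) in replicate 3, against 17.8%, 25.5% and 28.8% of all names with a count in the same libraries. Replicate 2 alone was at 0 in 8 of them (17.4%), against 6.97% of all names with a count. Replicate 3 alone was at 0 in 4 (8.70%), against 9.89%, and replicate 1 alone in 1 (2.17%), against 4.21%. Of the 18 members with at least 15 summed counts, replicate 2 was lowest in 11 (61.1%), against 34.5% of the 5721 names of all kinds that reached that sum.

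A single linker histone gene, HIST1H1E, accounted for most of the H1 counts and for the largest part of the family total. It had 199, 106 and 165 counts in replicates 1, 2 and 3, at 414 ± 154 CPM (SD, n = 3), and ranked 351 among all names by mean CPM. It held 37.5% (33.5% to 41.7%), 40.0% (34.3% to 46.0%) and 46.1% (41.0% to 51.3%) of the histone counts in these libraries. No other member exceeded 25 counts in any library. HIST1H1E is a gene of 1 exon at chr6:26156354-26157107 on the plus strand; none of its 50-base words occurred in transcripts of another gene, and no annotated exon lay opposite it, which does not tell the strand its counts came from.

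The other H1 genes were low. HIST1H1C had 3, 16 and 4 counts, HIST1H1A had 5, 3 and 0, HIST1H1D had 1, 1 and 2 and HIST1H1B had 1, 0 and 0. HIST1H1C was highest in replicate 2, the library in which HIST1H1E was lowest. HIST1H1T, the testis H1 gene, had no count. All 6 H1 genes were free of 50-base words shared with transcripts from another place, and in this they did not differ from HIST1H1E. The same 4 promoter motifs were searched in all of them, and AAACACA and CCAAT were present in each.

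**Figure D1:**
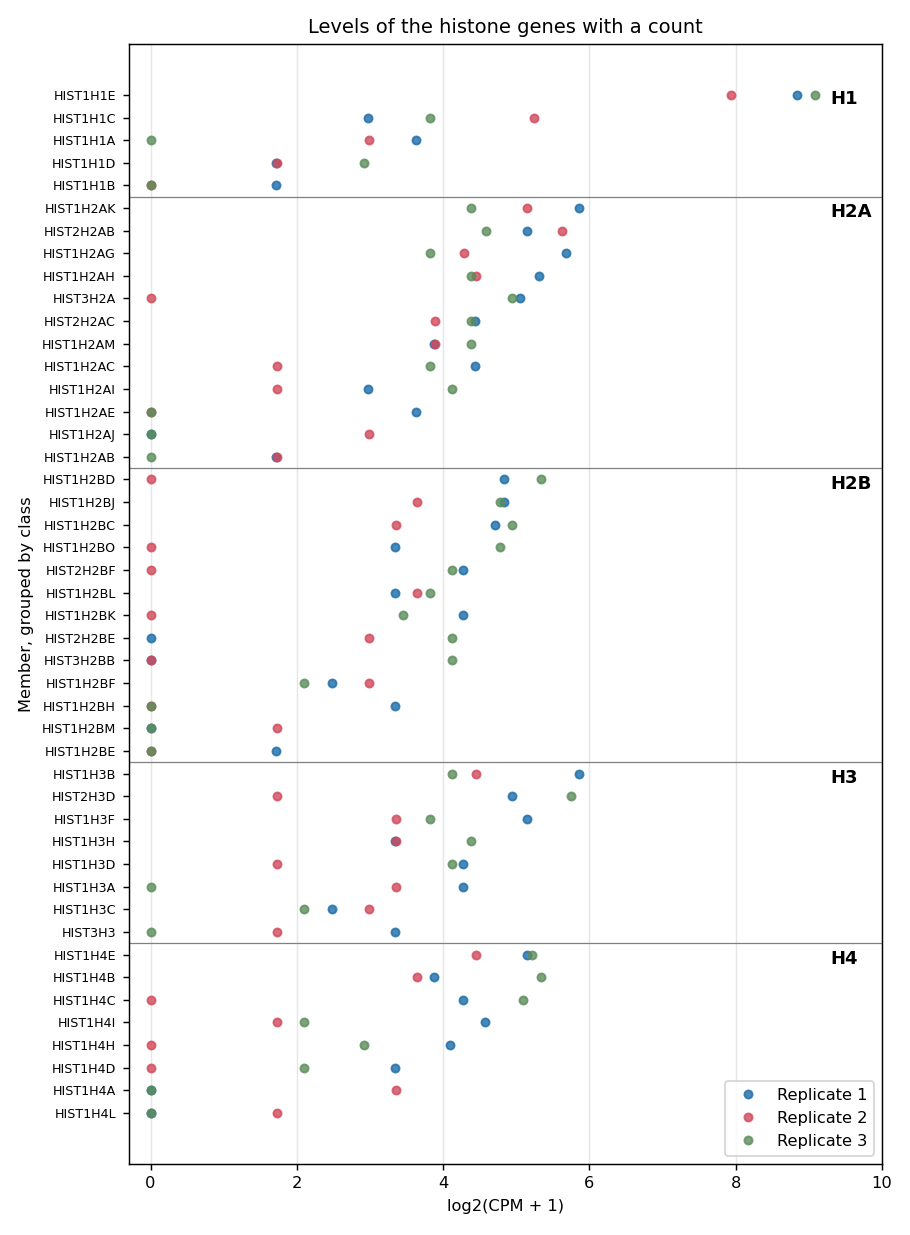
Level of each of the 46 histone genes with a count, as log2(CPM + 1) on the horizontal axis, with 1 point per library coloured by replicate and genes grouped by class. HIST1H1E stands to the right of every other gene in all 3 libraries, and the points of replicate 2 lie at 0 for 13 genes.

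H2A genes followed H1 in counts. The class had 250 counts over 12 of its 18 members. HIST1H2AK led with 25, 15 and 6 counts, or 37.2 ± 18.8 CPM (SD, n = 3), and HIST2H2AB followed with 15, 21 and 7, or 35.3 ± 12.7 CPM. HIST1H2AG had 22, 8 and 4 counts and HIST1H2AH had 17, 9 and 6. These 4 overlapped in their ranges, so no order among them holds beyond the spread of the libraries. All 393 bases of the HIST1H2AK exon lie within exons of HIST1H2BN on the other strand, and HIST1H2BN itself had no count; 27 bases of HIST2H2AB lie within exons of BOLA1 on the other strand. HIST1H2AM had 6 counts in each library; 346 of its bases are also annotated to HIST1H3J on the same strand, so its counts are uncertain.

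H2B genes had 147 counts over 13 of 20 members, none of them above 12 in a library. HIST1H2BD had 12, 0 and 12 counts, HIST1H2BJ had 12, 5 and 8, HIST1H2BC had 11, 4 and 9 and HIST1H2BO had 4, 0 and 8. In each of these replicate 2 was lowest by CPM. HIST1H2BD, which lies downstream of HIST1H1E on the same strand, was at 0 in replicate 2 where HIST1H1E still had 106 counts. HIST1H2BA, the testis H2B gene, had no count.

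H3 genes had 143 counts over 8 of 14 members. HIST1H3B had 25, 9 and 5 counts, HIST2H3D had 13, 1 and 16, HIST1H3F had 15, 4 and 4 and HIST1H3H had 4, 4 and 6. The order of HIST1H3B and HIST2H3D was not the same in every library. HIST3H3, the testis H3 gene, had 4, 1 and 0 counts and was the only one of the 4 testis histones with a count; HIST1H2AA, the testis H2A gene, had none.

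H4 genes had 107 counts over 8 of 15 members. HIST1H4E led with 15, 9 and 11 counts, or 30.4 ± 8.44 CPM (SD, n = 3). HIST1H4B had 6, 5 and 12 counts, HIST1H4C had 8, 0 and 10 and HIST1H4I had 10, 1 and 1. The H4 copy of the isolated HIST4 locus, HIST4H4, had no count.

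As shares of histone counts, H1 took 39.4% (Wilson 95% interval 35.4% to 43.7%), 47.5% (41.6% to 53.6%) and 47.8% (42.6% to 52.9%) in replicates 1, 2 and 3, or 44.9% ± 4.75 (SD, n = 3). H2A took 21.8% ± 6.24, H2B 12.4% ± 4.42, H3 11.8% ± 2.68 and H4 9.11% ± 1.42 (SD, n = 3 each). The intervals of H1 lay above those of each other class in every library. H2A lay above H3 and H4 in replicates 1 and 2 with intervals that did not meet, while in replicate 3 its share of 14.8% (11.5% to 18.9%) overlapped those of H2B, H3 and H4. H2B ranged from 7.92% in replicate 2 to 16.8% in replicate 3. Leaving out HIST1H1E, H1 took 6.24%, H2A 36.7%, H2B 21.4%, H3 20.01% and H4 15.6% of the remainder (means of 3 libraries).

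**Figure D2:**
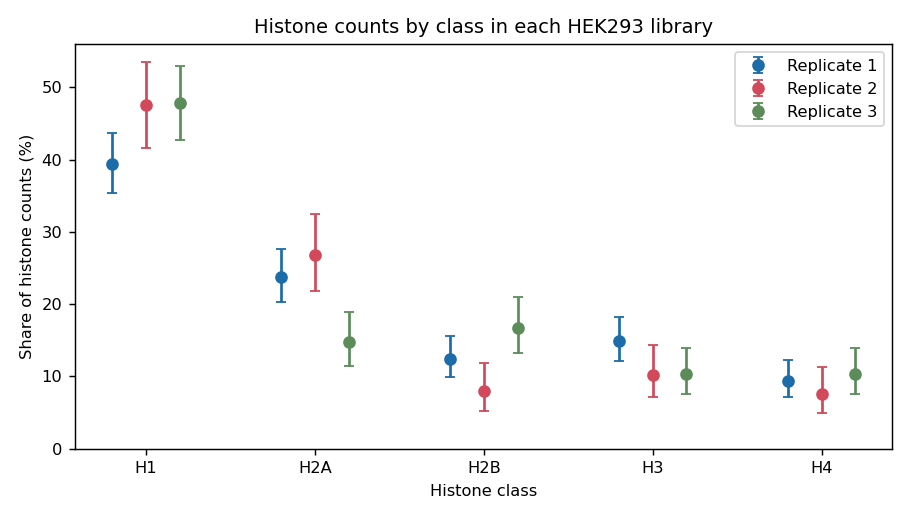
Share of histone counts (%) held by each class in replicates 1, 2 and 3, with Wilson 95% intervals as bars. H1 lies above all other classes in each library, between 39.4% and 47.8%.

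Per kilobase of merged exon, H1 stood at 116, 70.7 and 137 CPM per kb in replicates 1, 2 and 3. H2A stood at 25.7, 14.6 and 15.6, H3 at 13.1, 4.52 and 8.85, H4 at 7.92, 3.19 and 8.45 and H2B at 4.52, 1.45 and 5.93 CPM per kb. The order of the 5 classes was the same in all 3 libraries. H2B came last on 33.4 kb of exon, which includes HIST2H2BC (6440 bp) and HIST1H2BN (5477 bp), both without a count. The order without them was not computed. H1 and H2A did not overlap with any other class, whereas H3, H4 and H2B overlapped with each other. Without HIST1H1E, H1 fell to 6.81, 13.7 and 5.89 CPM per kb and H2A was highest in every library. No order carries a call, because the smallest p that a two-sided exact permutation test of paired classes allows here is 0.25 (n = 3). Per kilobase of coding sequence the order below H1 was not kept: in replicate 3, H2B, H4, H2A and H3 stood at 28.5, 26.4, 26.4 and 21.3 CPM per kb. Annotated exon length differed by class, with a median of 911 bp for H2B and 393 bp for H2A genes.

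**Figure D3:**
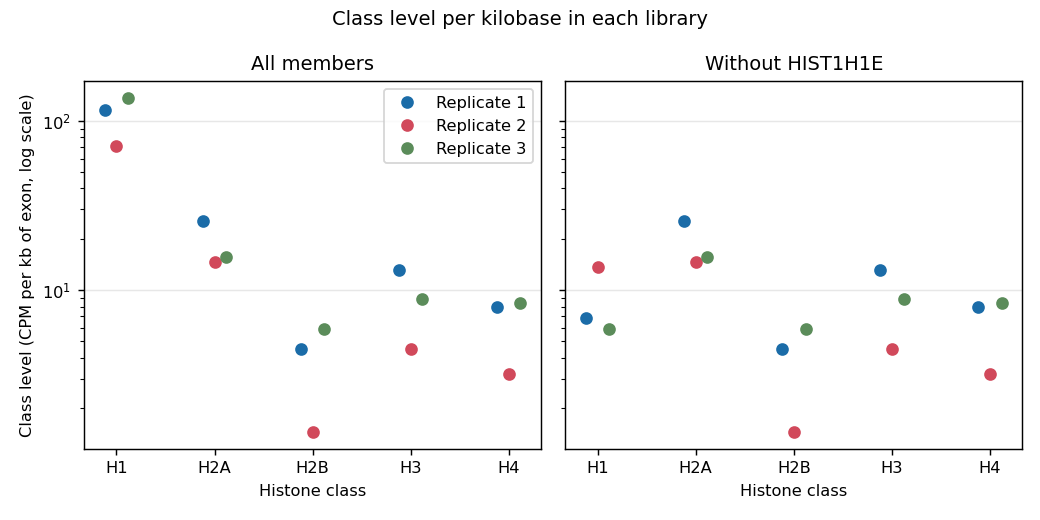
Class level in CPM per kilobase of exon on a log axis, with 1 point per library, for all members (left) and without HIST1H1E (right). H1 lies between 70.7 and 137 on the left and between 5.89 and 13.7 on the right.

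By cluster, HIST1 held 87.1% ± 1.63 of histone counts, HIST2 10.4% ± 1.67 and HIST3 2.56% ± 1.91 (SD, n = 3 each). Their shares of the 73 members were 76.7%, 17.8% and 4.11%, and of exon length 63.1%, 28.6% and 4.87%. HIST1H1E, a HIST1 gene, alone held 41.2% ± 4.40 of histone counts (SD, n = 3). All other members held 683 counts, 115 of them in HIST2 and 33 in HIST3. A count was found for 38 of 56 HIST1 (67.9%), 5 of 13 HIST2 (38.5%), 3 of 3 HIST3 and 0 of 1 HIST4 genes, against 54.7% of all names. HIST1 falls into 3 stretches when neighbours more than 500000 bp apart are split. The stretch at chr6:25726132-26285638 had 773 counts, or 303 without HIST1H1E, over 35 genes. The stretch at chr6:27125897-27147515 had 114 counts over 5 genes, all 5 with a count, and that at chr6:27807444-27893843 had 118 over 16 genes. Of HIST2, HIST2H2AB, HIST2H2AC, HIST2H3D, HIST2H2BF and HIST2H2BE carried all 115 counts. HIST3H2A had 14, 0 and 9 counts and HIST3H2BB had 0, 0 and 5, so both were at 0 in replicate 2.

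Members whose sequence occurs almost whole elsewhere had no counts. For each member the share of its 50-base transcript words found in transcripts of a gene at another place was computed; no source used here gives the read length, so 50 bases is a stand-in. All 7 members with more than 95% of their words shared had no count in any library: HIST1H4K, HIST2H2AA3, HIST2H2AA4, HIST2H3A, HIST2H3C, HIST2H4A and HIST2H4B. HIST2H3A and HIST2H3C shared 100% of theirs with each other. Of 13 members with more than 50% shared, 4 had a count, HIST2H3D, HIST1H2BK, HIST1H2AI and HIST1H2AJ, and together the 13 held 4.37% ± 2.41 (SD, n = 3) of histone counts on 14.8% of exon length. Of the other 60 members, 42 had a count. Low sharing did not go with a count in every case, since 10 of the 32 members with no shared word were also at 0. Records aligned to more than 1 place were between 6.005% and 7.51% of each library and were counted for no gene, so the level of a copy with shared sequence is uncertain.

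**Figure D4:**
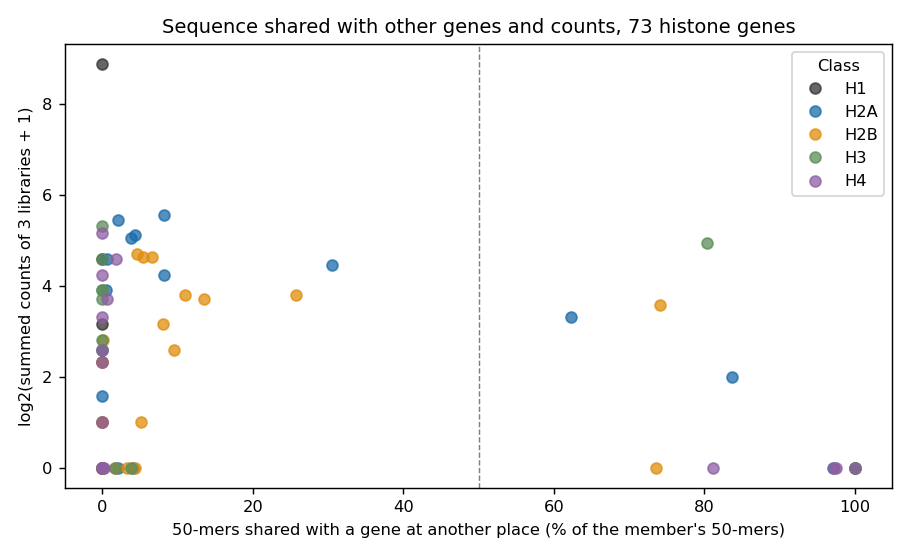
Summed counts of the 3 libraries as log2(count + 1) against the percentage of a member's 50-base words found in transcripts of a gene at another place, 1 point per gene, coloured by class, with a dashed line at 50%. The 7 members beyond 95% lie at 0 counts and HIST1H1E lies alone at the top left.

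Few histone exons lie opposite the exon of another gene. Such an overlap was annotated for 10 of the 73 members (13.7%), against 31.6% of all matched names. These 10 held 9.29% ± 4.28 of histone counts, whereas names with such an overlap held 74.4% ± 1.77 of all gene-assigned counts (SD, n = 3 each). TSIX is among the latter names and alone held 17.9%, 28.5% and 17.1% of gene-assigned counts in replicates 1, 2 and 3. Where at least 50 shared exonic bases were required, the members' share was 5.05%, since HIST2H2AB, with 43 of the 103 counts, overlaps BOLA1 by 27 bases. Members with an overlap had a count in 4 of 10 cases, against 73.8% of all names with one. Members with none had a count in 42 of 63 cases (66.7%), against 46.5% of all names with none. Among overlapped members without a count, HIST2H3A, HIST2H3C, HIST2H4A and HIST2H4B also had more than 95% of their 50-base words shared. For these, overlap and shared sequence cannot be told apart, and neither was tested.

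Head-to-head neighbours, with GENCODE gene starts on opposite strands within 1000 bp, formed 13 pairs 124 to 357 bp apart. Of these, 12 joined an H2A with an H2B gene. HIST1H2AK and HIST1H2BN are not among the pairs, because GENCODE starts HIST1H2BN at 27837760. Their RefSeq promoter windows, on opposite strands, overlap (chr6:27838326-27838625 and chr6:27838319-27838618). Both partners had a count in 8 pairs, all of H2A with H2B, and in 6 of these 8 the H2A gene had more counts summed over the libraries. In total the H2A partners had 154 counts and the H2B partners 99. Per kilobase, the same partner was higher in all 3 libraries in 4 of the 8 pairs. These were HIST1H2AH over HIST1H2BK, HIST2H2AC over HIST2H2BE, HIST1H2BC over HIST1H2AC and HIST1H2BJ over HIST1H2AG, so H2A was the higher partner in the first and second of these and H2B in the others. By counts, HIST1H2AG exceeded HIST1H2BJ in 2 of 3 libraries. HIST1H2AG, HIST2H2BE and HIST1H2AC, each lower per kilobase, had the longer annotated exons: 2250, 2194 and 1668 bp against 950, 390 and 834 bp. HIST1H2BK shared 74.1% of its 50-base words with transcripts from another place, against 3.85% for HIST1H2AH. HIST1H2AH had 100, 53.6 and 51.1 CPM per kb, against 48.0, 0 and 26.0 for HIST1H2BK. HIST1H2BC had 30.1, 11.1 and 35.6 CPM per kb, against 12.3, 1.38 and 7.90 for HIST1H2AC. The order changed between libraries, or was tied, for HIST1H2AI and HIST1H2BL, HIST1H2AM and HIST1H2BO, HIST1H2AJ and HIST1H2BM, and HIST3H2A and HIST3H2BB.

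**Figure D5:**
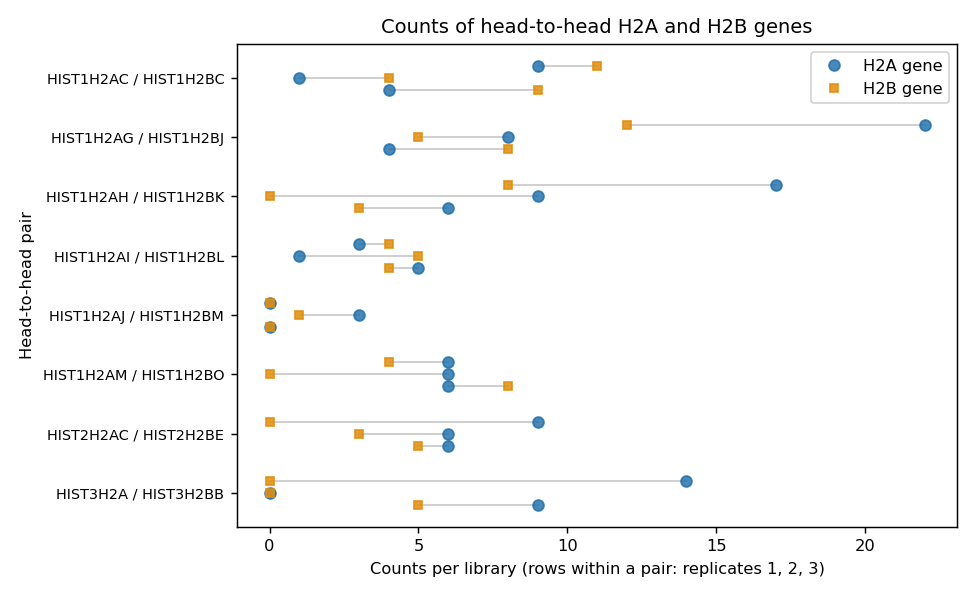
Counts of the H2A gene (circle) and the H2B gene (square) of the 8 head-to-head pairs in which both had a count, with replicates 1, 2 and 3 from top to bottom within a pair. The symbols change sides between pairs, and the H2B squares of replicate 2 all lie at 5 counts or fewer.

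Whether a gene differed between replicates by more than counting error was tested with a Poisson fit in edgeR, over all genes that reached 10 counts in each of the 3 libraries. HIST1H1E was the only member to do so, and it varied, with an adjusted p of 7.30e-10 (edgeR, Benjamini-Hochberg over 2564 genes). Of all genes tested, 45.8% were called, so a call was common at this depth. HIST1H1E stood at 455, 244 and 544 CPM in replicates 1, 2 and 3, with replicate 2 lowest. Without replicate 2 the adjusted p was 0.298, and with a negative binomial null at the common dispersion it was 0.933. With no count filter, 15 of the 46 members with a count were called (32.6%), against 20.1% of 14482 names, and the chi-square approximation is rough at such counts. HIST1H2BD (adjusted p = 0.000273), HIST2H3D (0.000346) and HIST3H2A (0.000523) were called there by edgeR's fit, each at 0 or 1 count in replicate 2.

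Histone genes outside the clusters and genes that act on histone mRNA or protein gave a mixed picture. Among 12 replication-independent variants, which are made throughout the cell cycle, 8 had a count (66.7%), against 54.7% of all names. H1FX, a linker histone, had 42, 12 and 12 counts, H3F3B, an H3.3 gene, had 12, 14 and 18 and H2AFV had 18, 16 and 2. CENPA, the centromeric H3 variant, H2AFJ and H3F3A had none. Of the 2 variants that could be tested, H1FX varied between replicates (adjusted p = 0.000299) and H3F3B did not pass (0.148) in edgeR's fit. Over all genes tested, 45.8% were called. H1FX was highest in replicate 1.

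Among 18 genes of histone mRNA transcription and 3′ end processing, 16 had a count (88.9%), against 54.7% of all names. NCBP1, a cap-binding subunit, had 132, 234 and 105 counts, NCBP2, its partner, had 34, 32 and 26 and NPAT, the activator of histone genes in S phase, had 7, 20 and 5. CSTF2 and NELFE had none. SLBP had 10, 3 and 2 counts. Of the 2 tested, NCBP1 varied (edgeR adjusted p = 7.75e-07), with replicate 2 highest, and NCBP2 did not pass (0.881). Over all genes tested, 45.8% were called.

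Among 15 histone chaperone genes, 11 had a count (73.3%), against 54.7% of all names. ASF1A, a chaperone of H3 and H4, had 117, 239 and 125 counts, RBBP4 had 63, 68 and 34 and NAP1L1, a chaperone of H2A and H2B, had 22, 17 and 14. CHAF1B, DAXX and NAP1L4 had none. Of the 3 tested, ASF1A varied (edgeR adjusted p = 5.04e-09), with replicate 2 highest, and RBBP4 and NAP1L1 did not pass. With 45.8% of all genes tested called, a call on 1 gene of a list is not particular to that list. ASF1A and NCBP1 were thus highest in the library in which HIST1H1E was lowest. Replicate 2 was also highest in 36.4% of the 5721 names of all kinds with at least 15 summed counts. A link of ASF1A or NCBP1 to HIST1H1E was not tested. Whether these differences between libraries are technical or from the cultures cannot be told apart with 1 group.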

How the data were processed

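The deposited tables held whole-number counts per gene symbol, with no normalisation by the authors, and 5 summary lines that were left out. Per the submitters' processing notes, Trimmomatic, TopHat2 2.2.5 and HTSeq 0.11.2 were used with hg38; no source used here gives the annotation, strand option or read length. CPM were computed from the deposited counts with edgeR 4.0.16 (R 4.3.3) TMM library sizes. The variation test was an edgeR Poisson model with an intercept alone, deviance on 2 degrees of freedom, Benjamini-Hochberg over all genes that reached 10 counts in each library, called at an adjusted p under 0.05. It was tested on simulated data. All 73 members were matched by name to GENCODE 29 (GRCh38) for coordinates, merged exon lengths and 50-base words. Intervals are Wilson 95%. Named genes were those with at least 10 counts in every library, the 4 highest of each class, all H1 and testis genes, paired genes and the highest and uncounted genes of each list; a few others were named after their values were seen. Members and lists were chosen with earlier results of these data known. Alternatives included DESeq2 1.42.0 size factors, total counts, other lengths and filters, and leaving out each replicate. P-values measure the spread between these samples, which may be technical. Some genes of the marker lists are not reported here.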

Additional observations from a re-analysis of the deposited data

How the results depend on the processing

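Leaving out HIST1H1E, the member with the most counts, moved every class share: H1 to 6.24%, H2A to 36.7%, H2B to 21.4%, H3 to 20.01% and H4 to 15.6%. It moved the H1 level to 8.82 CPM per kb and left H1 highest in 0 libraries. Medians over members gave 6.36 CPM per kb for H1, 6.30 for H2A, 0.607 for H2B and 0 for H4, with H1 highest in 2 libraries. Coding length gave 31.5 CPM per kb for H2A, 19.0 for H2B, 21.3 for H3 and 20.4 for H4. Without members with over 50% of their 50-base words shared, an alternative chosen after seeing the data, H4 stood at 9.47 CPM per kb. Members with at least 10 counts in every library numbered between 1 and 4 when a replicate was left out, the 4 without replicate 2 and 3 without replicate 3, and 10 members had at least 5 counts. Members that varied numbered 15 with no count filter, 0 with the negative binomial null and between 0 and 1 when a replicate was left out, the 0 without replicate 2. With the negative binomial null no gene of any kind was called. The family's share was between 0.0893% and 0.126% when a replicate was left out and 0.128% with TSIX removed from the denominator. HIST1 held between 86.6% and 88.0%, HIST2 between 9.69% and 11.3% and HIST3 between 1.89% and 3.65% when a replicate was left out. The share over opposite-strand exons was then between 7.14% and 11.4%, and 5.05% where at least 50 shared bases were required. Levels of named members rested on single libraries: for 22 of 33, leaving out a replicate moved the mean by over 1.5 times. HIST1H4I fell to 2.72 CPM and HIST1H2AG to 15.3 CPM without replicate 1, HIST1H1C to 10.6 CPM without replicate 2 and HIST3H2BB to 0 without replicate 3. HIST1H1E was among the 11 that moved by less. Other scalings, TSIX removal included, moved 0 of 99 levels by over 1.5 times. Depth limits single members, since most had fewer than 10 counts per library. No paired analysis was possible because the libraries form 1 group.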
